A study of Mus musculus with 11 samples.

Results

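PU.1 occupancy was read in ES-EP, erythroid progenitors grown from embryonic stem cells, and in MEL cells, and the sites described here are those where ES-EP carried far more PU.1 ChIP-Seq reads than MEL cells. They were chosen by measured values: a fixed 500 bp bin was kept when it held at least 15 pooled ES-EP ChIP reads, at least 4 in each ES-EP chromatin preparation, at least 4 times the depth-scaled ES-EP input (with the input set to no fewer than 3 reads), and over 5 times the depth-scaled MEL ChIP reads. Adjacent bins were joined. The rule left 450 ES-EP-selective regions of 8,637 regions bound in ES-EP, and 466 of 9,177 bound bins (5.08%) passed the step over MEL cells. The ES-EP to MEL contrast is therefore how the regions were found, and its values are given as a description. No test was run on this contrast or on the shares of regions, since regions of one library are not replicates. The comparisons below are shares with exact binomial (Clopper-Pearson) 95% intervals that cover counting error only. Dixon's criterion was used only to flag single libraries at the named regions.

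ES-EP were kept in StemPro34 medium with Epogen (erythropoietin), IGF-1, dexamethasone and SCF. MEL cells are murine erythroleukemia cells, here clone 4 of a line that stably carries Gata-1 fused to ER, so that MEL cells are represented by 1 clone, and they were grown in DMEM with FBS and puromycin. For each cell type 2 preparations of chromatin (A and B) were precipitated with the same PU.1 antibody and sequenced as 2 libraries each, with 2 input libraries for ES-EP and 1 for MEL cells. After repeated reads were removed, the ChIP libraries held 1,788,141 to 4,591,884 autosomal reads and the inputs 2,183,235 to 4,721,401. Nothing in the labels says whether preparations came from separate cultures.

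PU.1 belongs to the ETS family and contacts DNA at purine-rich sites built on the core GGAA. It drives myeloid and B-cell development, and it is kept low as erythroid cells mature. In MEL cells a retroviral insertion keeps PU.1 on and holds the cells at an immature stage, while erythroid progenitors express it at lower levels during proliferation. GATA factors, which read GATA-containing words, direct the erythroid and mast cell programmes, and GATA-1 and PU.1 are known to oppose each other.

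The sequences that the results turn on are given first, from NCBIM37 (mm9), forward strand. Capitals mark the words searched for on both strands: the PU.1 word GAGGAAGT with its shorter form GAGGAA, the variant GGGGAAGT, the ETS word CCGGAAGT, the GATA word AGATAA, the further GATA word TGATAA, and its other form GATAAG. The forms overlap each other, so that neighbouring words run together. For 4 regions within 2 kb of a TSS (a transcription start site), among them the 3 with most reads, the 30 bases around the first marked word of the centre are shown.
Rab32, chr10:10278030-10278059: ctggtcccggcACTTCCTCttccctggcta
Plekhg1, chr10:6606159-6606188: cgcctggctccACTTCCTCtttcccactct
Sept10, chr10:58684524-58684553: ccgcgcggagcCCGGAAGTgggcggggcct
Gpr149, chr3:62407826-62407855: tcagcggTTCCTCcgaacacagcagctggt
For the strongest region in Chd7 and for the regions that hold the study's amplicons in Mta3 and on chromosome 8, the 150 bases around the point of most ES-EP reads follow.
Intron of Chd7, chr4:8627476-8627625: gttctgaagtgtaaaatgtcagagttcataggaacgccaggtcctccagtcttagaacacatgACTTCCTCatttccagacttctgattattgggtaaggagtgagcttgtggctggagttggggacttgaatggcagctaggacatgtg
Intron of Mta3, chr17:84169856-84170005: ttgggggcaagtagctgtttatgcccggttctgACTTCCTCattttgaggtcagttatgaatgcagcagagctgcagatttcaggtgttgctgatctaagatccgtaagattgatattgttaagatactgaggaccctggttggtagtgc
Chromosome 8, upstream of Large, chr8:76454346-76454495: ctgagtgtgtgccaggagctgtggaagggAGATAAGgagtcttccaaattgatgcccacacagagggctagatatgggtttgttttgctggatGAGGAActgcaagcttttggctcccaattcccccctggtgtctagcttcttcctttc
The last 3 belong to a group of regions with a shared sequence, and each carries the variant word beside like neighbouring bases.
Far downstream of Tsn, first region, chr1:119570986-119571135: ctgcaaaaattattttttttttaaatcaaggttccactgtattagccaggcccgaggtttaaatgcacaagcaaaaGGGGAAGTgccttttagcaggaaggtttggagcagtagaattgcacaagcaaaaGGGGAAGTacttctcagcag
Far downstream of Tsn, second region, chr1:119748356-119748505: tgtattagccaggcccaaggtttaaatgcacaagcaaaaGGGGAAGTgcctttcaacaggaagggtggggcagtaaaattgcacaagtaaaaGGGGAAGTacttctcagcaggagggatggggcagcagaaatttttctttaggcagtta
Intron of Odz4, chr7:103779106-103779255: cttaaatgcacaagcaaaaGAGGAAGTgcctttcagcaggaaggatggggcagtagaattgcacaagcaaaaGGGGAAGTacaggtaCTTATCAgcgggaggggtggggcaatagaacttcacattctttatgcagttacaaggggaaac

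Most ES-EP-selective regions were weak, and a few were very strong. They held 15 to 469 pooled ES-EP reads with a median of 28, and 236 of the 450 held fewer than 30. The MEL reads ran from 0 to 38 with a median of 3. At 242 regions the 4 MEL libraries together held 3 reads or fewer, and at 22 they held none. With the MEL count set to at least 3 reads, 67 regions were over 10 times and 6 were over 20 times higher in ES-EP. The median of 28 reads was close to that of the 8,187 other ES-EP-bound regions, 27, whose MEL median was 22. Just inside the limit, the 2 lowest bins had 5.01 and 5.03 times the scaled MEL reads, from 59 against 11 and 70 against 13 reads, and just outside it bins of 16 against 3 reads stood at 4.99. There were 115 bins with a ratio over 5 and up to 6, 234 with a ratio over 4 and up to 5, and 36 chosen bins held exactly 15 reads.

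**Figure D1:**
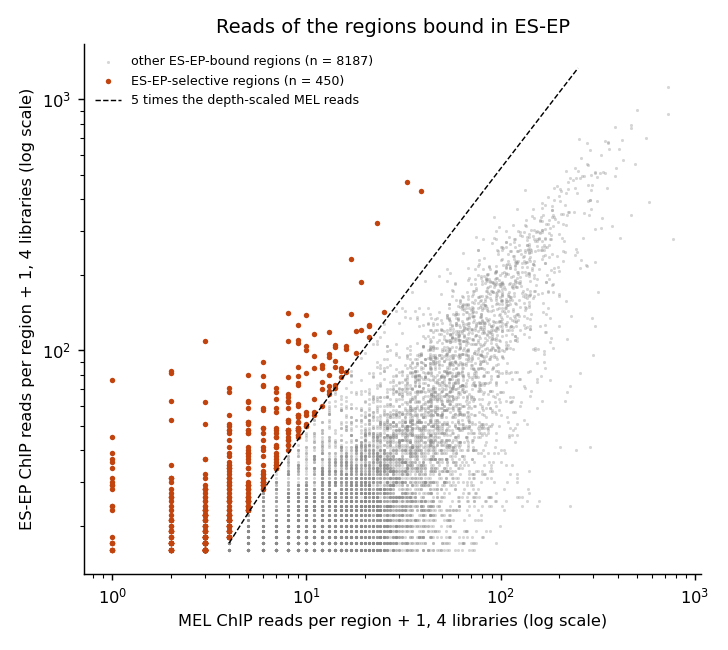
ES-EP ChIP reads against MEL ChIP reads for each region bound in ES-EP, both plus 1 on log scales and summed over 4 libraries, with 450 ES-EP-selective regions in orange, 8187 other ES-EP-bound regions in grey and a dashed line at 5 times the depth-scaled MEL reads. Rab32 (469 reads), Plekhg1 (432) and Sept10 (320) lie above the rest of the chosen regions.

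Every chosen region was higher in both ES-EP preparations than in both MEL preparations, scaled to depth, and in 344 of 450 the lowest ES-EP library lay above the highest MEL library. The reads counted here are those that chose the regions, so this order is largely set by the rule. It was not counted over the other ES-EP-bound regions, and nothing is read from it. In ES-EP the preparations were unequal. Reads per region averaged 45.5 per 10,000,000 reads in preparation A and 23.3 in preparation B at the ES-EP-selective regions, against 3.76 and 4.19 in MEL preparations A and B. At the other ES-EP-bound regions ES-EP preparation A was also the higher, with 56.4 and 29.7, and in MEL cells A and B averaged 27.3 and 36.5. Preparation A was above B at 91.6% of the ES-EP-selective regions and at 90.7% of the other ES-EP-bound regions.

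MEL cells were low at these regions but not at the level of their surroundings. Within 100 bp of the point of most ES-EP reads the 4 MEL ChIP libraries held 3.35 to 3.65 times the reads of the flanks beyond 700 bp, the MEL input 1.56 times, and the ES-EP inputs 1.17 and 1.41 times. The 4 ES-EP ChIP libraries rose 15.1 to 26.7 times over their flanks. At the other ES-EP-bound regions the MEL ChIP libraries rose 13.9 to 15.3 times.

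**Figure D2:**
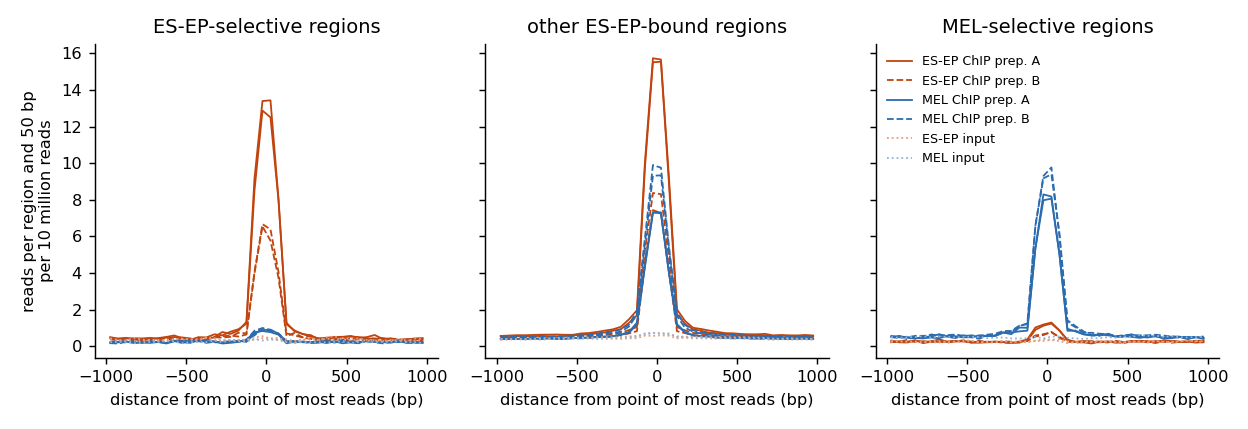
Mean reads per region and 50 bp, per 10,000,000 reads, against the distance from the point of most reads, which was set on the ES-EP reads for the first 2 panels and on the MEL reads for the third, with 1 line per library (solid preparation A, dashed preparation B, dotted input). In the ES-EP-selective regions both ES-EP preparations peak at the centre, A above B, while all 4 MEL ChIP lines show a low central rise.

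To see how far one pair of preparations foretells the other, bins were chosen on preparations A alone and measured in preparations B, and the other way round, with the read minimum scaled to depth and the same ES-EP inputs in both. Of 1,408 bins chosen on A, 13.85% (12.09 to 15.76) were over 5 times higher in ES-EP in preparations B, against 3.07% of all bins bound in ES-EP preparation A, and 68.25% were higher by any amount. Of 151 bins chosen on B, 64.9% (56.72 to 72.48) were over 5 times higher in preparations A, against 11.5% of all bins bound in ES-EP preparation B, and 96.03% were higher by any amount. The shares higher by any amount were not counted over all bound bins, so nothing is read from them. Summed over the bins chosen on A, the ES-EP reads of preparations B were 1.38 times the MEL reads after depth scaling, and 0.754 times in the bound bins that were not chosen. Over the bins chosen on B, the ratio in preparations A was 8.65, against 2.17. With depth scaled by median ratios in place of total reads, the shares were 29.35% for bins chosen on A and 45.63% for bins chosen on B. Leaving out ES-EP preparation A left 146 regions and leaving out ES-EP preparation B gave 771, while the set grew to 863 without MEL preparation B and fell to 276 without ES-EP library A2.

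The ES-EP-selective regions lay mostly away from promoters. Within 2 kb of a TSS, the proximal promoter, lay 43 of 450 regions, 9.56% (7 to 12.66), against 28.59% (27.62 to 29.59) of the other ES-EP-bound regions and 4.34% of all autosomal bins. The 847 MEL-selective regions, found by the same rule with the cell types exchanged, had 10.39% (8.42 to 12.64) there. The promoter share of the ES-EP-selective set rose to 15.17% when MEL library B2 was dropped, to 15.69% when both ES-EP libraries of preparation B were dropped, and to 23.99% when both MEL libraries of preparation B were dropped. Introns held 44.44% of the regions, exons 4.44%, and 51.11% lay outside protein-coding genes, with a median distance to the nearest TSS of 30,920 bp against 10,189 bp for the other ES-EP-bound regions. Within 50 kb of a region, another ES-EP-selective region was found for 65 of 450 (14.44%) and one of the other ES-EP-bound regions for 194 (43.11%). A region of their own set was found for 55.78% of the 8,187 other ES-EP-bound regions and for 23.73% of the 847 MEL-selective regions, and these sets are larger.

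The 3 regions with most reads were at promoters. Of the 30 regions with most reads, 11 lay within 2 kb of a TSS and the others farther away. The first was in an exon at the TSS of Rab32, a small GTPase of vesicle transport (chr10:10277501-10278500). Its 4 ES-EP libraries held 90, 176, 60 and 143 reads and its 4 MEL libraries 2, 6, 5 and 19. The next was 14 bp upstream of Plekhg1 (chr10:6606001-6606500), with 85, 194, 39 and 114 reads in ES-EP and 6, 6, 8 and 18 in MEL cells. At the first exon of the septin gene Sept10 (chr10:58684501-58685000) ES-EP libraries held 76, 133, 24 and 87 reads and MEL libraries 2, 7, 2 and 11. The first pair hold the PU.1 word near the centre, and the Sept10 window holds the ETS word instead. The summed MEL reads of the 3, 32 (over 1000 bp), 38 and 22, were above the mean of 2.32 per 500 bp of the autosomes. The other ES-EP-bound regions within 2 kb of a TSS had a median of 31 MEL reads.

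The other 8 promoter regions among the 30 belong to genes of several functions. Gpr149, an orphan G-protein-coupled receptor, had 44, 63, 18 and 62 ES-EP reads and 1, 3, 3 and 11 MEL reads at chr3:62406501-62408000, which holds the amplicon of the study at this gene. Slitrk5, a neuronal transmembrane protein, had 26, 63, 11 and 37 against 1, 5, 1 and 2. Csf2ra, the alpha chain of the GM-CSF receptor and a myeloid gene, had 30, 47, 5 and 42 against 2, 3, 3 and 12, and here the lowest ES-EP library was below the highest MEL library in reads. The remaining 5 were at Ppm1l, a protein phosphatase (117 ES-EP and 12 MEL reads), Mkx, a homeobox factor (109 and 8), Chd7, a chromatin remodeller (103 and 15), Galc, the lysosomal galactosylceramidase (103 and 9), and Nsmaf, a partner of neutral sphingomyelinase (94 and 10).

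At the strongest of these promoters the input libraries differed too. Over the 43 regions within 2 kb of a TSS, the MEL input held 60 reads and the ES-EP inputs 223, a depth-scaled MEL to ES-EP ratio of 0.459 (0.339 to 0.612). In the 407 regions away from a TSS the ratio was 0.88 (0.781 to 0.991), and at the other ES-EP-bound regions it was 0.906 (0.881 to 0.931) in the 2,341 near a TSS and 1.63 (1.59 to 1.67) in the 5,846 away from one. The 20 kb around the 43 regions had a median ratio of 0.773. The low ratio was that of the 11 promoter regions among the 30 with most reads, which held 23 MEL and 145 ES-EP input reads, a ratio of 0.27 (0.166 to 0.422), against a median of 0.725 in the 20 kb around them. The other 32 held 37 and 78, a ratio of 0.809 (0.531 to 1.21), against 0.782 around them. At Sept10 the MEL input held 0 reads and the ES-EP inputs 4 and 16, at Plekhg1 0 against 5 and 9, and at Rab32 3 against 4 and 16. Csf2ra went the other way, with 6 MEL and 2 ES-EP input reads. The ES-EP input was part of the rule and the MEL input was not. The part of this input difference in the ChIP difference was not tested.

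Away from promoters, Mta3 held a pair of regions with 1 and 2 MEL reads. Mta3 encodes a subunit of the NuRD chromatin remodelling complex. At chr17:84169501-84170000 the 4 ES-EP libraries held 23, 45, 12 and 28 reads and the 4 MEL libraries 0, 1, 1 and 0, around one PU.1 word. A second region of the gene, chr17:84136001-84136500, had 21, 24, 9 and 26 reads against 0, 0, 1 and 0. Both regions lay in DNA with more input in MEL cells than in ES-EP, at MEL to ES-EP ratios of 1.25 and 1.27 over 100 kb. The chromosome 8 amplicon of the study lay in chr8:76454001-76454500, 576,982 bp upstream of Large, a glycosyltransferase gene, with 20, 22, 5 and 15 ES-EP reads and 0, 1, 0 and 0 MEL reads. There the input ratio was 0.414.

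The strongest intronic regions were at Pcdh7 and Chd7. In the cell adhesion gene Pcdh7, chr5:58171501-58172500 held 69, 89, 23 and 50 ES-EP reads and 6, 3, 2 and 5 MEL reads, with an input ratio of 0.127 in the 20 kb around it. In Chd7, chr4:8627501-8628000 held 45, 44, 20 and 31 against 0, 3, 2 and 2 reads around a PU.1 word, 9,039 bp from the nearest TSS. Card6, which encodes a protein with a caspase recruitment domain, had the nearest gene body to a region 14,500 bp downstream of it (chr15:5031001-5032000) with 37, 44, 23 and 37 against 4, 6, 7 and 7 reads. None of the PU.1 words was found in that window.

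The 450 regions were nearest to 397 protein-coding genes, and 359 of these genes had 1 region. There were 12 genes with 3 or more. Chd7 had 4, from the promoter to 20,865 bp beyond the gene, with 21 to 140 ES-EP reads each. Tlr4, the receptor for bacterial lipopolysaccharide, had 4 regions of 18 to 35 ES-EP reads and 0 to 4 MEL reads, of which 1 lay in the gene and the others up to 262,623 bp downstream. Tox3, an HMG-box factor on chromosome 8, had 4 with 15 to 82 ES-EP reads. The strongest of them, in an intron, had 29, 38, 3 and 12 reads against 0, 0, 0 and 1.

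Pcdh7, Tsn, Pgrmc2, Amph, Galc, Slc18a1, Nebl, Frmd4a and Gm5356 had 3 regions each. The 3 regions assigned to Tsn, which encodes the nucleic-acid-binding protein translin, lay 253,363 to 624,033 bp from the gene and all belong to the group with the shared sequence. Pgrmc2 encodes a haem-binding membrane protein, Amph amphiphysin, Slc18a1 a vesicular monoamine transporter and Nebl the actin-binding protein nebulette. The 100 kb input ratio was from 0.305 to 0.59 at the regions of Tlr4, Tox3, Slc18a1, Pcdh7 and Gm5356, and from 0.915 to 1.05 at those of Frmd4a. Both cell types enter this ratio. In 100 kb around the strongest Tox3 region the ES-EP inputs held 557 reads and the MEL input 117. Around the strongest Pcdh7 region they held 286 and 60. The autosomal means were 279.3 and 163.8. How much of a gene's count of regions goes with its copies in either cell type was not tested.

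The genes of 10 lists, which cover blood lineages, growth factor signalling, glucocorticoid response, the NuRD complex and pluripotency, were looked up among the nearest genes. Of 186 listed genes 8 were nearest to an ES-EP-selective region, 4.3%, against 1.87% of all 21,281 protein-coding genes, while 84 were nearest to one of the other ES-EP-bound regions (45.16%, against 26.22% of all genes). The lists of 12 erythroid regulators, 19 stem and progenitor regulators, 18 megakaryocyte and platelet genes, 20 lymphoid genes and 17 glucocorticoid-responsive genes had no gene among the 8. At 1.87% of all genes, lists of this size would hold fewer than 1 each, so that nothing is read from these counts of 0. Erythroid regulators such as Tal1, Gfi1b, Lmo2 and Nfe2 were nearest to other ES-EP-bound regions.

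Of the 22 mast cell genes 3 were nearest to an ES-EP-selective region (13.64%, against 1.87% of all genes), and 19 had no ES-EP-selective region. Nearest to other ES-EP-bound regions were 9 (40.91%, against 26.22% of all genes and 45.16% of the genes of all lists). Hdc, the enzyme that makes histamine, had an intronic region with 4, 7, 3 and 3 ES-EP reads and 0, 0, 1 and 0 MEL reads (chr2:126435501-126436000). Mitf, a transcription factor of mast cells and melanocytes, had a region 631 bp upstream of one of its start sites with 8, 16, 3 and 6 against 2, 1, 0 and 0 reads (chr6:97890001-97890500). Rgs13, a regulator of G-protein signalling, had one 7,759 bp upstream with 6, 6, 4 and 8 against 0, 1, 0 and 1 (chr1:146032001-146032500). All 3 windows hold the word AGATAA, as do 32.89% of all 450 regions and 19.15% of all autosomal windows, and nothing is read from 3 windows. The input ratios over 100 kb were 1.11, 0.937 and 1.13, and the reads are few.

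The other listed genes were Csf2ra and Tlr4 among 27 myeloid genes, Irs2, the insulin receptor substrate that relays growth factor signals (21 ES-EP and 3 MEL reads), Mta3 of the NuRD complex, and Zfp42, a pluripotency gene known as Rex1 (21 and 2 reads, 60,848 bp upstream). Of the 397 genes, 224 were also nearest to one of the other ES-EP-bound regions, as were 5,579 of all 21,281 protein-coding genes (26.22%), and 17 were nearest to a MEL-selective region, as were 674 of all (3.17%). Of the 8 listed genes, Mta3, Mitf, Rgs13, Csf2ra, Tlr4 and Irs2 were nearest to other ES-EP-bound regions as well.

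The MEL input, which the rule did not use, was lower around these regions. In 100 kb the depth-scaled MEL to ES-EP input ratio had a median of 0.808 (quartiles 0.673 and 0.981), against 0.927 over all 100 kb windows of the autosomes, 1.03 around the other ES-EP-bound regions and 1.33 around the MEL-selective regions. It was under 0.5 at 24 of 450 regions, 5.33% (3.45 to 7.83), against 0.61% (0.45 to 0.8) at the other ES-EP-bound regions and 1.5% of all 100 kb windows of the autosomes. In 20 kb it was under 0.5 at 62 regions, 13.78% (10.73 to 17.31), against 2.65% and 5.34% of all 20 kb windows. The window left out the region itself and the bins beside it.

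Few regions had MEL input near 0, as a deletion in MEL cells would give. In 20 kb, 7 of 450 had a ratio under 0.25, 3 under 0.1, and 2 had no MEL input read. The shares of all 20 kb windows under these ratios were not counted. The first of the 2 regions without a MEL input read was in an intron of St6galnac1, a sialyltransferase gene (chr11:116616001-116616500). It had 0 MEL against 198 ES-EP input reads, a ratio of at most 0.0321, while over 100 kb the ratio was 0.608. The ES-EP inputs averaged 279.3 reads per 100 kb of the autosomes, so that 198 in 20 kb was itself high. The second, upstream of Gm12887 (chr4:121768001-121768500), had 0 against 57 in 20 kb and 3 against 234 in 100 kb. A region downstream of Gm7367 on chromosome 7 had 7 against 119 input reads in 100 kb, and one near RP23-108F2.4 on chromosome 17 had 2 against 44 in 20 kb. Of these 4, St6galnac1 and Gm7367 had no MEL ChIP read, and the others had 1 and 3. The other 3 of the 7 did hold MEL ChIP reads, with 16 and 4 at the Pcdh7 regions (20 kb ratios 0.127 and 0.117) and 20 at a region downstream of 1700047G07Rik (0.229). Where both the MEL input and the MEL ChIP reads are near 0, a lack of PU.1 and a lack of DNA cannot be told apart.

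Dividing the MEL reads of each region by its 100 kb input ratio left 332 of 450 regions over 5 times higher in ES-EP, of which 22 have no MEL read and cannot change. With the MEL count set to at least 3 reads, 388 regions were over 5 times higher before and 261 after. Among the 428 regions with a MEL read, the median ratio went from 7.48 to 6.31, and 425 stayed over 2 times higher. The regions were chosen at over 5 times on these same reads, so that the count over 2 times is largely set by the rule. Nothing is read from it, and these values are a description.

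Chromosome 8 stood out. It held 57 of the 450 regions, and 9.83% (7.53 to 12.55) of its ES-EP-bound regions were ES-EP-selective, against 1.52% (0.56 to 3.28) on chromosome 15 and 3.32% (1.87 to 5.41) on chromosome 3. The MEL to ES-EP input ratio was 0.708 over chromosome 8, 1.279 over chromosome 15 and 1.286 over chromosome 3. Chromosome 8 held 199,779 MEL and 481,216 ES-EP input reads, against 220,432 and 375,598 on chromosome 7, where the ratio was 1.0. On chromosome 8, 15 of 57 regions had a ratio under 0.5 in 100 kb, and on the other chromosomes 9 of 393. Over the 19 autosomes the ES-EP-selective share and the input ratio had a Pearson correlation of -0.825 and a Spearman correlation of -0.69, and without chromosomes 8 and 15 these were -0.605 and -0.571. These points share the same libraries, so that the correlation is a description.

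**Figure D3:**
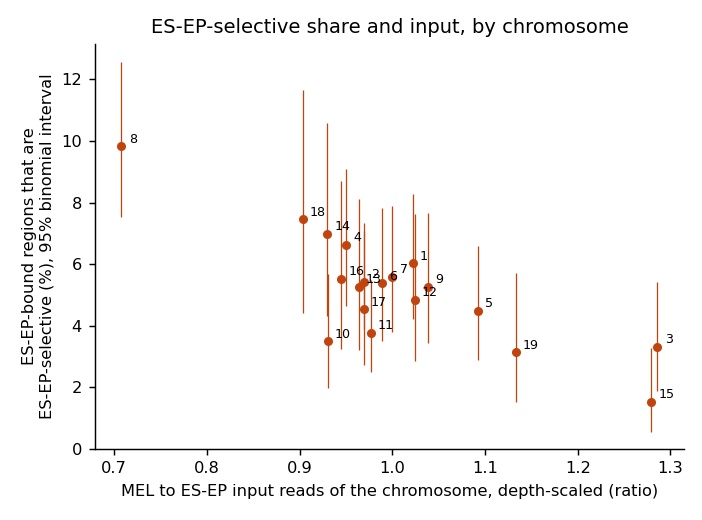
Share of ES-EP-bound regions that are ES-EP-selective (percent, 95% binomial interval) against the depth-scaled MEL to ES-EP ratio of input reads, with 1 point per autosome labelled by its number. Chromosome 8 (9.83%, ratio 0.708) has the highest share and the lowest ratio, and chromosomes 15 (1.52%, ratio 1.279) and 3 (3.32%, ratio 1.286) have the highest ratios.

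The PU.1 word was common in the regions but less so than at other PU.1 sites. In the 300 bp around the point of most reads, GAGGAAGT was found at 113 of 450 regions, 25.11% (21.17 to 29.38), against 35.08% (34.05 to 36.13) of the other ES-EP-bound regions and 1.81% of all autosomal windows of that length. Away from promoters the shares were 26.04% (21.85 to 30.6) and 40.13% (38.87 to 41.4), and 33.07% (29.73 to 36.54) in the MEL-selective regions. The gap was present in each range of ES-EP reads. It was 22.12% against 38.52% at 15 to 29 reads, 29.13% against 42.48% at 30 to 59, and 33.33% against 42.5% at 60 or more, where the intervals overlapped. Without the shared sequence, the shares were 27.36% against 43.75% where the 100 kb input ratio was under 0.7, 19.64% against 41.62% from 0.7 to 1, and 30.53% (21.49 to 40.82) against 38.92% (37.2 to 40.66) at 1 or more, with overlap in the last range. The short word GAGGAA was found at 61.92% (57 to 66.66) and 67.17% (65.95 to 68.38), closer together and overlapping. Where the region held GAGGAAGT, it lay within 50 bp of the point of most reads in 73.6% of ES-EP-selective and 85% of other ES-EP-bound regions away from promoters.

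GATA words were more frequent in the ES-EP-selective regions as a whole, but not detectably so in those with most reads. Away from promoters, and leaving out the regions with the shared sequence, AGATAA was found at 37.4% (32.44 to 42.56) of 369 ES-EP-selective regions, 26.04% (24.9 to 27.2) of 5,687 other ES-EP-bound regions, 24.97% (21.92 to 28.21) of 757 MEL-selective regions and 19.15% of all windows. TGATAA followed with 27.91%, 18.66%, 20.34% and 18.21%, and GATAAG, a form added after the first results were seen, with 30.89%, 18.43%, 16.78% and 10.72%. At least one of the 3 was present at 56.1% (50.87 to 61.23) of ES-EP-selective and 40.81% (39.53 to 42.1) of other ES-EP-bound regions. A GATA word together with the short PU.1 word was present at 34.96% (30.1 to 40.07) and 27.34% (26.19 to 28.52). With the shared sequence included, AGATAA lay within 50 bp of the point of most reads in 60.3% of the 141 ES-EP-selective regions that held it and in 45.1% of the 1,487 other ES-EP-bound regions that held it.

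By ES-EP reads, the intervals for GATA words were apart only below 60 reads. At 60 or more, 63 ES-EP-selective regions remained and the intervals were wide. Whether the gap differs between the ranges was not tested. Away from promoters, with the shared sequence included, GATAAG was found at 26.73% against 16.4% at 15 to 29 reads and at 36.22% against 21.17% at 30 to 59, without overlap of the intervals. At 60 or more reads it was found at 26.98% (16.57 to 39.65) of 63 ES-EP-selective regions and 24.92% (22.1 to 27.9) of 887 other ES-EP-bound regions. TGATAA there was at 23.81% and 23.56%, and AGATAA at 38.1% (26.15 to 51.2) and 33.71% (30.6 to 36.93). AGATAA at 15 to 29 reads was at 28.57% (22.66 to 35.08) against 21.92% (20.56 to 23.33), with overlapping intervals, and at 30 to 59 at 43.31% against 28.73%, without overlap.

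These words are rich in A and T, and the same ES-EP-selective regions had a median GC content of 45.3% against 47% in the other ES-EP-bound regions. Within ranges of GC content the order stayed. AGATAA was found at 52.58% against 36.69% under 42% GC, at 37.75% against 28.46% from 42 to 48%, and at 24.79% against 19.44% above, and the intervals overlapped in the middle and upper ranges. GATAAG was found at 36.08% against 20.73%, 29.14% against 19.47%, and 28.93% against 16.61%, without overlap. By input ratio the picture was less even. Where the 100 kb ratio was under 0.7 or from 0.7 to 1, GATAAG was found at 28.3% and 36.9% of ES-EP-selective regions against 16.75% and 19.13% of others, and the intervals of the first pair overlapped. Where it was 1 or more, the shares were 23.16% (15.12 to 32.94) and 18.15% (16.81 to 19.55), and for AGATAA 32.63% (23.36 to 43.02) and 25.3% (23.77 to 26.87), with overlapping intervals. TGATAA there was at 15.79% against 17.79%.

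The E-box CAGCTG was found at 11.56% (8.75 to 14.88) of all 450 against 16.16% (15.37 to 16.98) of the other ES-EP-bound regions. Away from promoters and without the shared sequence, the shares below 48% GC were close, with 8.25% against 7.98% under 42% and 13.91% against 14.56% from 42 to 48%, and above it the shares were 13.22% (7.75 to 20.58) and 22.58% (20.98 to 24.25). Without the shared sequence the intervals just met, and it was found at 12.2% (9.04 to 15.98) of ES-EP-selective regions away from promoters, 16.86% (15.9 to 17.86) of other ES-EP-bound and 20.34% (17.53 to 23.39) of MEL-selective regions. The glucocorticoid receptor word ACANNNTGT, whose factor binds dexamethasone, was found at 10.57% (7.62 to 14.16) and 10.48% (9.7 to 11.31). The words of AP-1 (TGANTCA), RUNX (TGTGGTT), STAT (TTCNNNGAA), KLF factors (CCACACCC), the E-box CACGTG and the ETS-IRF composite (GGAANNGAA) were found at 3.79% to 13.82% of ES-EP-selective regions, with intervals that overlapped those of the other ES-EP-bound regions. A match is a string of letters and not a shown binding site.

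**Figure D4:**
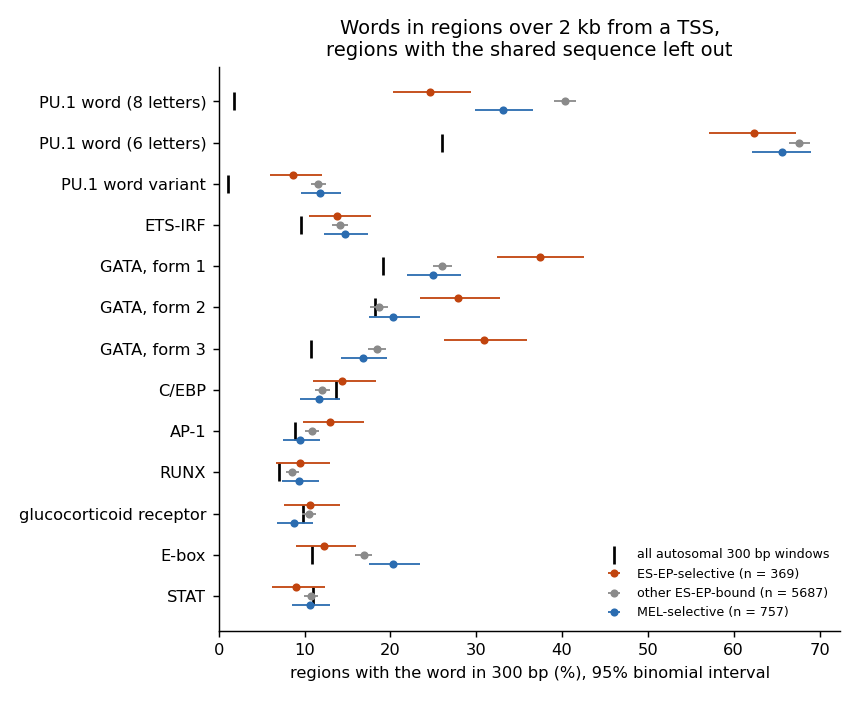
Share of regions over 2 kb from a TSS that hold each word in the 300 bp centred on the point of most reads (points, 95% binomial interval), for 369 ES-EP-selective, 5687 other ES-EP-bound and 757 MEL-selective regions without the shared sequence, with a tick for all autosomal windows. GATA form 1 is AGATAA, form 2 is TGATAA and form 3 is GATAAG, and ES-EP-selective regions lie highest for all 3 and lowest for the longer PU.1 word.

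One sequence recurred in the set. Among the 450 windows of 300 bp, 39 were joined into a single group by sharing at least 25 words of 11 letters with another of the group. The same number was found with at least 15 or 40 shared words, and the next largest group had 2 members (4 with 15). This group was noticed in the data, and its counts are a description. The 3 examples above show its unit, in which GGGGAAGT or GAGGAAGT follows the same stretch of bases and recurs within the window. The variant GGGGAAGT was present in 76.92% (60.67 to 88.87) of the 39, against 8.67% (6.01 to 12.02) of the other ES-EP-selective regions away from promoters, and GAGGAAGT in 38.46% (23.36 to 55.38). The variant was added to the search after the shared sequence was seen, so its high share in the 39 follows from that choice. In the other ES-EP-bound regions away from promoters it was found at 13.58%, and at 11.57% without the shared sequence. The C/EBP word TTGCNNAA was present in 82.05% of the 39. It was found at 20.88% of all ES-EP-selective regions away from promoters, which fell to 14.36% (10.95 to 18.36) without the group, against 12.06% (11.23 to 12.94) in the other ES-EP-bound regions.

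The 39 regions lay on 13 chromosomes, 9 of them on chromosome 7 and 7 on chromosome 1, and 38 lay outside protein-coding genes, against 192 of the other 411. They held 16 to 138 ES-EP reads. The 2 with most reads, both far downstream of Tsn, had 37, 45, 18 and 38 against 2, 7, 3 and 4 reads, and 35, 35, 21 and 34 against 4, 3, 1 and 0. The region in an intron of Odz4, a teneurin gene of cell adhesion, had 21, 29, 11 and 25 against 2, 0, 4 and 5. The ES-EP and MEL libraries did not overlap in any of these, which the choice of regions on these reads favours.

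Copies of the shared sequence were then looked for by their letters, without regard to the reads at each copy. The words searched for came from the 39 windows, which had been chosen on ES-EP reads. The autosomes held 1,174 copies, of which 39 were in ES-EP-selective regions, 164 in other ES-EP-bound regions, 77 in MEL-bound regions and 2 in MEL-selective regions. Put as shares of regions, 8.67% (6.24 to 11.66) of ES-EP-selective, 1.97% (1.68 to 2.29) of other ES-EP-bound and 0.24% (0.03 to 0.85) of MEL-selective regions held it. The first share was set by where the words came from, and no like search was started from the other sets. Nothing is read from the order of these shares. Over the 1,135 copies outside the ES-EP-selective regions, ES-EP libraries held 10.4, 11, 4.78 and 5.76 reads per copy and 500 bp, per 10,000,000 reads, and MEL libraries 4.45, 5.66, 4.98 and 5.19. ES-EP preparation A was above both MEL preparations, and ES-EP preparation B (5.46) was near them (5.24 and 5.11). The inputs there held 1.014 in ES-EP and 1.005 in MEL cells, with a ratio of 0.991 (0.881 to 1.11).

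In the 39 chosen copies the MEL preparations held 5.32 and 4.71 reads per copy, close to those at the other copies, and ES-EP preparations A and B held 44.4 and 26.5. The chosen copies were set apart by their ES-EP reads, as the rule requires. Their input ratio was 0.469 (0.217 to 0.931), from 11 MEL and 40 ES-EP input reads. The deposited reads align to one place only, and the input at the copies elsewhere was below the autosomal mean of 2.02 in both cell types.

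**Figure D5:**
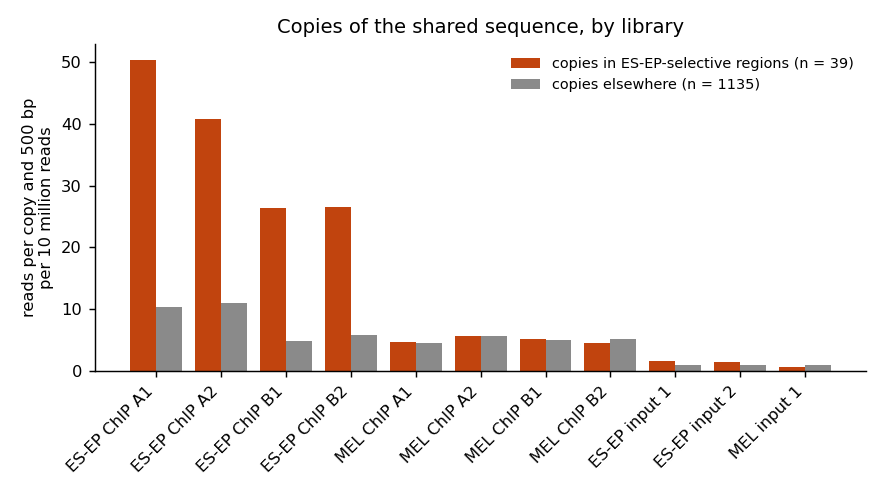
Reads per copy and 500 bp, per 10,000,000 reads, in each library for the 39 copies of the shared sequence in ES-EP-selective regions (orange) and the 1135 copies elsewhere (grey), with bars from 0. The chosen copies are high in all 4 ES-EP ChIP libraries by the choice of regions, and at the other copies ES-EP preparation A lies above the remaining ChIP libraries.

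Mismatches to the reference were counted as a check on misplaced reads. In the 4 ES-EP ChIP libraries, reads at ES-EP-selective regions without the shared sequence had 0.222, 0.248, 0.198 and 0.255 mismatches per read, against 0.188, 0.221, 0.181 and 0.255 at the other ES-EP-bound regions. At the regions with the shared sequence they had 0.193, 0.325, 0.173 and 0.176, with the highest value in library A2 only.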

How the data were processed

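PU.1 ChIP and input libraries of ES-EP and MEL cells were sequenced on an Illumina GAII. The authors aligned reads with ELAND to mm9 and kept unique alignments with up to 2 mismatches. The ELAND version is not given in the sources used here. The deposited files list 1 read per line with no measured value, so that every count was made here. The 5′ ends were shifted by 70 bp (MEL cells) or 65 bp (ES-EP), at most 1 read per position, strand and library was kept, and 500 bp bins of the 19 autosomes were counted. Pooled depth was 12,275,235 ES-EP and 11,474,694 MEL ChIP reads, and MEL reads were scaled by 1.07. Removing repeated reads leaves counts that cannot exceed the positions available.

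The letter in a library's name was taken as its chromatin preparation. Genes came from GENCODE vM1 on NCBIM37, and the nearest gene was the protein-coding gene whose body or start was closest, a gene holding the point of most reads first. Members and lists were chosen with earlier results of these data known. Named regions were the 10 with most reads, those of genes with 3 or more, those over the study's ES-EP amplicons, those of listed genes, and those within 2 kb of a TSS among the 30 with most reads. Odz4, St6galnac1, Gm12887, Gm7367, RP23-108F2.4 and 1700047G07Rik were named after their values were seen, as were the shared sequence, the words GGGGAAGT and GATAAG, and 3 added alternatives. Copies of the shared sequence were found by its recurrent 12-letter words. No test was run on the contrast or on the shares of regions, and Dixon's criterion only flagged single libraries at named regions. Intervals are exact binomial at 95%. The rule was checked on simulated data. Python 3.11.15, numpy 2.4.6, pandas 2.3.3, scipy 1.17.1 and matplotlib 3.10.9 were used. Alternatives changed the thresholds, scaling, windows and libraries used.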

Additional observations from a re-analysis of the deposited data

Results flagged for a closer look

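Each of the 57 named regions gives 1 group of 4 ES-EP and 1 group of 4 MEL ChIP libraries. In 17 of these groups, 1 library lay far from the other 3 by Dixon's criterion. Values are reads per 10,000,000. In 11 of them only 1 MEL library held any read, so that the criterion is met by the counts of 0 alone and says nothing of that library. Library A2 stood at 2.967 for a region of Frmd4a, for the chromosome 8 region near Large and for a region of Galc. Library B2 stood at 2.552 for regions of Nebl, Gm5356 and Tox3 (2 regions). Library A1 stood at 5.592 for a second region of Nebl. Library B1 stood at 4.17 for Hdc and the second Mta3 region and at 8.34 for a region of Slc18a1.

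The other 6 groups met a criterion that chance meets in about 1 of 20 groups, for independent values without such ties. With 1 group per cell type at each named region, 6 is close to that rate. The libraries of a group share preparations and many counts are small, so that the rate is a rough guide only. Among them, MEL library B1 stood at 20.85 in the third region of Chd7 against 2.552 to 5.592, and at 0.0 in a region of Amph against 5.104 to 5.935. The MEL counts behind these were small, with 1, 1, 5 and 1 reads at Chd7 and 1, 2, 0 and 2 at Amph. MEL library A2 stood at 14.84 at Slitrk5 against 4.17 to 5.592, and MEL library B2 at 30.63 at Csf2ra against 8.902 to 12.51. In ES-EP, library A2 stood at 33.48 at Irs2 against 9.588 to 10.89, and library A1 at 71.91 in a region of Slc18a1 against 28.31 to 34.77.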

How the results depend on the processing

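The number of ES-EP-selective regions, 450, was 1130 at over 3 times MEL, 149 at over 10 times, 209 at 30 reads and 8 in each preparation, 703 at 2 times and 189 at 8 times the input, and 146 to 863 when a library or preparation was left out. The share within 2 kb of a TSS, 9.56%, was 6.67% within 1 kb, 16.89% within 5 kb, 16.55% at over 3 times MEL, 13.37% at 2 times the input and 8.7% to 23.99% with a library or preparation left out. The share with GAGGAAGT, 25.11%, was 60.22% for GAGGAA, 29.67% at 30 reads, 31.75% at 8 times the input and 21.93% to 27.5% with a library or preparation left out. The share with an input ratio under 0.5, 5.33%, was 13.78% in 20 kb, 9.4% at over 10 times MEL, 2.29% without chromosome 8 and 3.6% to 7.53% with a library or preparation left out. The share over 5 times higher in the other preparations, 18.79% over both directions, was 41.37% at over 2 times and 33.59% with median-ratio depth scaling, where it was 29.35% for bins chosen on A and 45.63% for those chosen on B. The cause was not tested. Without the shared sequence there were 411 regions, and after dividing MEL reads by the input ratio 332. These and the chromosome 8 setting were chosen after seeing the data. The AGATAA share, 32.89%, was 26.19% to 39.68% over all settings, and 25 to 57 of the 57 named regions stayed chosen. No paired analysis was possible because the result comes from no test that could take a block. Preparations of the same letter were set side by side, as a description, only where bins chosen on one letter were measured in the other. Regions near 15 reads are limited by depth, and intervals cover counting error only.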

Other observations

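Of the 397 genes nearest to an ES-EP-selective region, 17 were also nearest to a MEL-selective region, 4.28% (2.51 to 6.77) against 3.17% of all protein-coding genes, a share near the background. They include Pecam1, an adhesion molecule of endothelium and blood cells, Arntl, a clock transcription factor, and Fbxw7, a ubiquitin ligase subunit, with 1 region of each kind. Gpc5, a glypican, had 1 ES-EP-selective and 33 MEL-selective regions, and Frmd4a had 3 and 1. Over all MEL-selective regions the 100 kb MEL to ES-EP input ratio ran from 0.455 to 8.98. The ratio at the Gpc5 regions is not given here, and how far their number goes with copies of the DNA was not tested. These genes were chosen after their values were seen.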
